A study of Homo sapiens with 6 samples.

Results

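Heat shock proteins are molecular chaperones that bind unfolded or partly folded proteins and help them reach or keep their folded state. The 10 genes described here were picked by symbol from the 36459 rows of the gene count table, and all 10 were among the 14626 genes with enough counts to be tested. They are HSPA1A, HSPA1B and HSPA8 of the HSP70 family, HSPH1 (HSP110) and DNAJB1 (HSP40), which act on HSP70, HSP90AA1 and HSP90AB1 of the HSP90 family, the small heat shock protein HSPB1, and the chaperonin pair HSPD1 (HSP60) and HSPE1 (HSP10). The group was named for the cytosol, but HSPD1 and HSPE1 are known to work in the mitochondrial matrix, so the name holds for the other 8 only.

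RNA was measured by poly-A RNA-seq in PC9 cells, a human lung adenocarcinoma line that depends on a mutant EGFR kinase. Parental PC9 cells grew without drug, in 3 independent cultures that gave 3 libraries. Persister (PS) cells were those left after 6 days in 15 µM erlotinib, an EGFR inhibitor, and 9 cultures were pooled into their 3 libraries. Erlotinib was present in every persister library and in no parental one, so the persister state and the presence of the drug cannot be told apart, and in bulk RNA fewer cells with a transcript cannot be told apart from less of it per cell.

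As background, HSP70 binds short hydrophobic stretches of a client protein in a cycle driven by ATP. J-domain proteins such as DNAJB1 deliver clients and start the cycle, and nucleotide exchange factors such as HSPH1 end it. HSP90 takes over clients near their native fold, many of them kinases and receptors, and mutant EGFR is a known HSP90 client. Under heat or other protein damage the transcription factor HSF1 binds heat shock elements, inverted repeats of the unit GAA, and raises the transcription of the inducible members, while HSPA8 and HSP90AB1 are made at high level without stress.

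Each library held between 29476725 and 34893782 gene counts, and the 10 genes took between 1.05% and 1.12% of them. Chi-square per degree of freedom between libraries of the same condition was 3.41 to 20.0, above sampling noise, so all 6 were kept as replicates. The epithelial markers EPCAM, KRT8, KRT18, KRT19, CDH1 and EGFR were at 209.6 CPM or more in every library. CPM are counts per library size, scaled by TMM in all other paragraphs but not scaled for the markers of this one. KRT8, at 2190 to 2546 CPM in parental and 1273 to 1359 CPM in persister libraries, KRT18 (1845 to 2012 and 951 to 1002) and KRT19 (919 to 977 and 430.3 to 451) were lower in persister libraries, EPCAM was lower too (382 to 403 and 334 to 337), and CDH1 (209.6 to 212 and 306 to 310.2) and EGFR (604 to 652 and 827 to 890.2) were higher. PTPRC and COL1A2, of leukocytes and fibroblasts, stayed at 0.363 CPM or less. PECAM1, an endothelial marker, was at 3.97 to 4.75 CPM in parental and 0.115 to 0.279 CPM in persister libraries, and COL1A1, of fibroblasts, at 10.1 to 10.9 and 26.1 to 29.1 CPM. Their part in the results below was not tested.

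The promoters of the members show where HSF1 units lie. In the RefSeq promoter table for GRCh38.p14, which gives 250 bases before and 50 after each start site, the 10 genes had 16 windows. A pair of inverted units, GAANNTTC or TTCNNGAA, each of which reads the same on both strands, was found in 9 of these 16 windows and in 13.5% of all 35116 windows. A run of 3 alternating units, which contains 2 overlapping pairs, was found in 4 of the 16 windows, against 0.490% of all windows. These 4 belong to HSPA8, HSP90AA1, HSP90AB1 and HSPD1. Only exact letters were searched, so imperfect elements are missed, and a match does not show that a factor binds.

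The 250 bases before the start sites of HSPA1A and HSPA1B are shown because these genes moved together, and those before the 2 start sites of HSP90AA1 because their transcripts moved unequally. Capitals mark units that stand in an inverted pair, and all sequences are from RefSeq. HSPA1A lies at chr6:31815293-31815542 (+ strand), HSPA1B at chr6:31827488-31827737 (+), the main HSP90AA1 start at chr14:102087045-102087294 (-) and its upstream start at chr14:102139750-102139999 (-).
HSPA1A: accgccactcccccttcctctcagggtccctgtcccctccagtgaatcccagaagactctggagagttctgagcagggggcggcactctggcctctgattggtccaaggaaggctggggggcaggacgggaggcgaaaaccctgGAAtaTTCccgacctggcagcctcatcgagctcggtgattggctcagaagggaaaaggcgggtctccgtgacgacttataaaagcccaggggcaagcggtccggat
HSPA1B: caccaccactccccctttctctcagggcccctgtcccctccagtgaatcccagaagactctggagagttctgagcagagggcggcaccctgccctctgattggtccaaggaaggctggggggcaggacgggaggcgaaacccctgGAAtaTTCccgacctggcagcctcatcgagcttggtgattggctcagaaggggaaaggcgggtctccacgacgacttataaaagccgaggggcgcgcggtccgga
HSP90AA1 main start: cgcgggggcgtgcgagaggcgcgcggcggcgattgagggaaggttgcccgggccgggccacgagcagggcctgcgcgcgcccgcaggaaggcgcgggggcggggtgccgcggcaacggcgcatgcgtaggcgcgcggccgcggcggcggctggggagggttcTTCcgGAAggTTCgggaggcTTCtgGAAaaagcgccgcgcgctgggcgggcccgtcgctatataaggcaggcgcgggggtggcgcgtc
HSP90AA1 upstream start: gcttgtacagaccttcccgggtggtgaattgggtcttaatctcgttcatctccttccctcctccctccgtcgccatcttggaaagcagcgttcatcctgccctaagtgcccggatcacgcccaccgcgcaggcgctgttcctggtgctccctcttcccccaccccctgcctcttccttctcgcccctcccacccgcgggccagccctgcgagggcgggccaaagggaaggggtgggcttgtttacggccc

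The HSPA1A and HSPA1B stretches were identical at 93.6% of 251 aligned positions, and each held 1 pair of units, beginning 106 and 105 bases before the start. The main HSP90AA1 start had a run of 3 units from 88 to 76 bases before it and a further pair from 68 to 61. The upstream HSP90AA1 start had no exact pair. HSPA8 had runs of 3 units beginning 230 and 55 bases before its start, HSPD1 had 4 units in a row beginning 245 bases before its main start, and DNAJB1 had pairs beginning 77 and 47 bases before its main start. In HSP90AB1 the 2 runs lay before a start site 842 bases from that of its leading transcript, and transcripts that begin there carried 0.169% of the gene's counts. HSPB1 had 1 pair, and no exact pair was found in the windows of HSPH1 and HSPE1. On chromosome 2 the HSPE1 window begins at 197500129, and the main HSPD1 window, which holds the HSPD1 units, ends at 197500090. Those units thus lie between the start sites of both genes but outside the HSPE1 window. The HSPH1 window lies 461 bases from the start of its leading transcript.

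**Figure D1:**
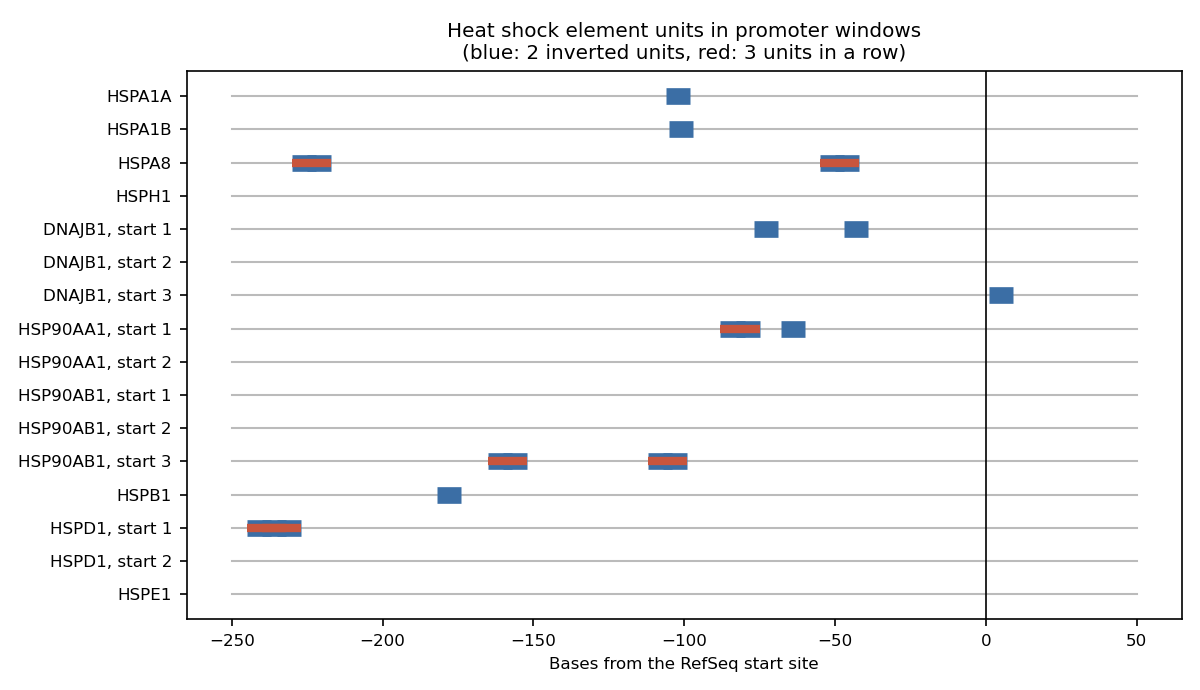
Positions of exact heat shock element units in the 16 promoter windows, in bases from the RefSeq start site at 0, with pairs of inverted units in blue and runs of 3 units in red. Start sites of a gene are ordered by the share of its counts that begin there, and the runs of HSPA8, HSP90AA1, HSP90AB1 and HSPD1 are the 4 windows in red.

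Which of the 10 genes differed between persister and parental cells was tested with edgeR's quasi-likelihood test on the whole gene table. The limit was 0.01 on the Benjamini-Hochberg adjusted p. HSPH1, HSPD1 and HSP90AA1 were higher in persister cells, HSPA1A, HSPA1B and HSP90AB1 were lower, and HSPA8, DNAJB1, HSPB1 and HSPE1 did not pass. The 6 that passed are to be read against 56.8% of all genes tested, of which 28.7% were higher and 28.1% lower. For the same 6 genes the libraries of the conditions did not overlap, as for 71.3% of all genes tested. The median log2 fold change of the 10 was 0.025, and that of all genes tested -0.0061. No member changed by a log2 fold change above 1, and the middle 90% of all genes ran from -1.14 to 1.12. The smallest p that exact permutation of 3 against 3 libraries allows is 0.1.

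**Figure D2:**
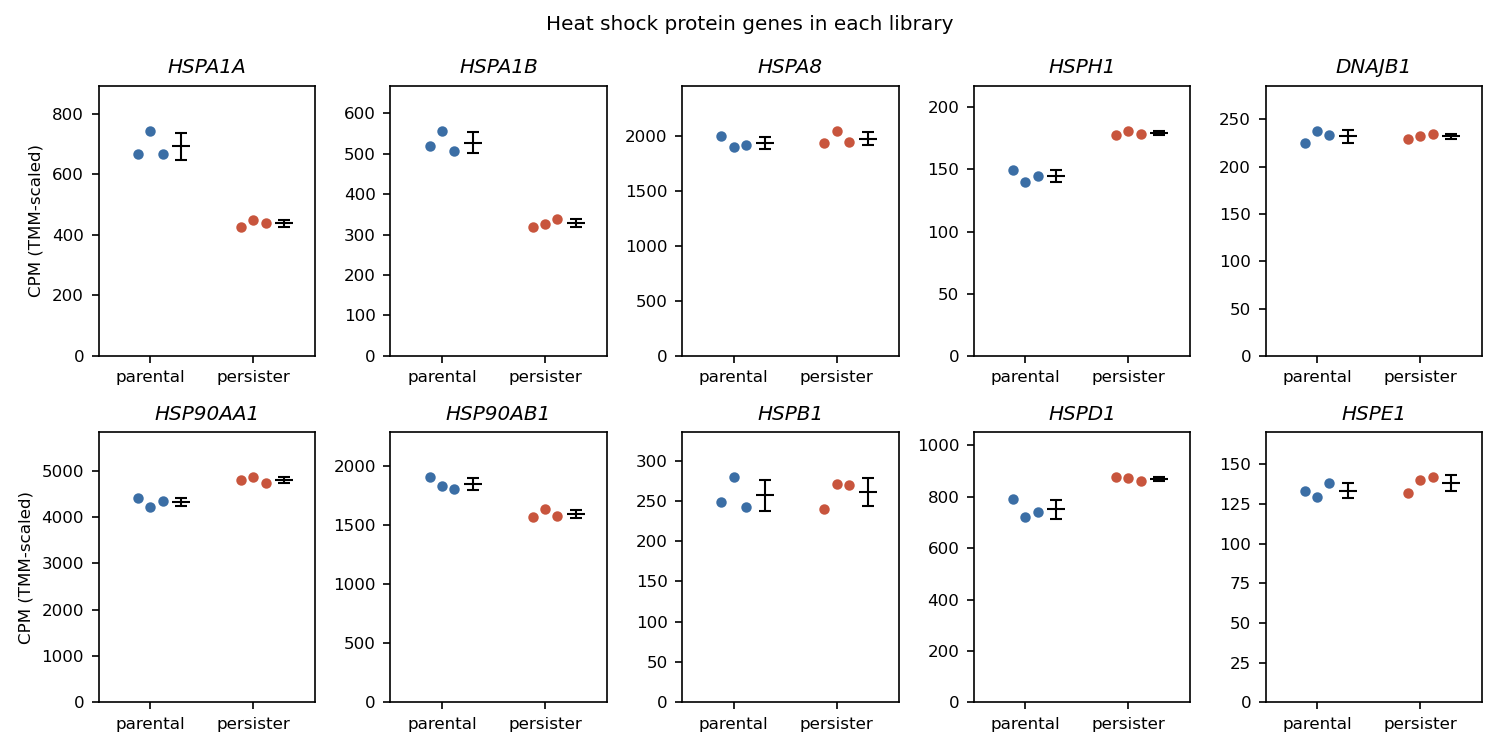
TMM-scaled CPM of the 10 genes in each library, on axes that start at 0, with the mean and SD of 3 libraries beside the points. HSPA1A stands at 667 to 743 CPM in parental and 426 to 449 CPM in persister libraries, while HSPA8 overlaps between the conditions.

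HSPA1A and HSPA1B encode the stress-inducible HSP70, and they fell most among the members. HSPA1A (ENSG00000204389, chromosome 6 of GRCh38, 31815543 to 31817946) had 667, 743 and 667 CPM in parental and 426, 449 and 440 CPM in persister libraries. On the log2 scale the difference, persister minus parental, was -0.66 (standard error, SE, 0.0467, adjusted p = 3.79e-07 in edgeR). HSPA1B (ENSG00000204388, chromosome 6, 31827738 to 31830254) had 519, 557 and 508 CPM in parental and 320, 328 and 339 CPM in persister libraries. The corresponding difference for HSPA1B was -0.68 on the log2 scale (SE 0.0422, adjusted p = 1.33e-07 in edgeR). Every persister library of either gene lay below every parental library.

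The copies are nearly the same sequence, and 76.9% of the 31-base words of HSPA1A occur in HSPA1B as well, so how reads were divided between them is uncertain. Their sum does not depend on that division. It was 1187, 1297 and 1176 CPM in parental and 745, 777 and 780 CPM in persister libraries, or 62.9% of the parental level (log2 fold change -0.67, SE 0.0435, adjusted p = 1.84e-07 in edgeR). HSPA1A held 56.7% ± 0.478 (SD, n = 3) of the counts of the pair in parental and 57.1% ± 0.685 (SD, n = 3) in persister libraries (two-sided exact permutation p = 0.5). In the transcript table only 0.0338% of the HSPA1A and 0.0693% of the HSPA1B counts were on transcripts of the annotation used here, so neither gene has a transcript result. The shared words above, and the lengths used below for the levels of both genes, are those of these annotated transcripts.

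HSPA8 encodes HSC70, the HSP70 made without stress. HSPA8 (ENSG00000109971, chromosome 11, 123057489 to 123063230) had 1997, 1896 and 1920 CPM in parental and 1940, 2046 and 1943 CPM in persister libraries. The ranges overlap, and the log2 fold change was 0.028 with a 95% interval of -0.052 to 0.11 (adjusted p = 0.510 in edgeR). Of the counts of HSPA1A, HSPA1B and HSPA8 together, the inducible pair took 37.3%, 40.7% and 38.0% in parental and 27.8%, 27.5% and 28.6% in persister libraries. The shares do not overlap (two-sided exact permutation p = 0.1, the smallest possible). This share and those of the HSP90 and chaperonin pairs were chosen for the text after the values were seen.

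The partners of HSP70 differed from each other. HSPH1, a nucleotide exchange factor (ENSG00000120694, chromosome 13, 31134973 to 31162388), had 150, 139 and 145 CPM in parental and 178, 181 and 178 CPM in persister libraries, with no overlap. It rose by a log2 fold change of 0.31 (SE 0.0380, adjusted p = 3.11e-05 in edgeR), the largest rise of the 10. DNAJB1, a J-domain protein (ENSG00000132002, chromosome 19, 14514769 to 14560391), had 224, 238 and 234 CPM in parental and 230, 232 and 234 CPM in persister libraries. The persister values fall within the parental range, and the 95% interval of the log2 fold change was -0.079 to 0.079 (adjusted p = 1.00 in edgeR).

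The HSP90 genes moved in opposite directions. HSP90AA1, the inducible alpha form (ENSG00000080824, chromosome 14, 102080742 to 102139699), had 4406, 4226 and 4355 CPM in parental and 4805, 4855 and 4728 CPM in persister libraries. It rose by a log2 fold change of 0.15 (SE 0.0314, adjusted p = 0.00161 in edgeR). This call was lost with upper-quartile factors (0.10, adjusted p = 0.0154), with library size only (0.094, adjusted p = 0.0144) and without parental replicate 3 (0.15, adjusted p = 0.0105).

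HSP90AB1, the constitutive beta form (ENSG00000096384, chromosome 6, 44246166 to 44253888), had 1899, 1831 and 1804 CPM in parental and 1567, 1633 and 1572 CPM in persister libraries. It fell by 0.21 on the log2 scale (SE 0.0348, adjusted p = 0.000253 in edgeR). HSP90AA1 took 69.9%, 69.8% and 70.7% of the counts of both genes in parental and 75.4%, 74.8% and 75.0% in persister libraries, without overlap (two-sided exact permutation p = 0.1, the smallest possible).

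**Figure D3:**
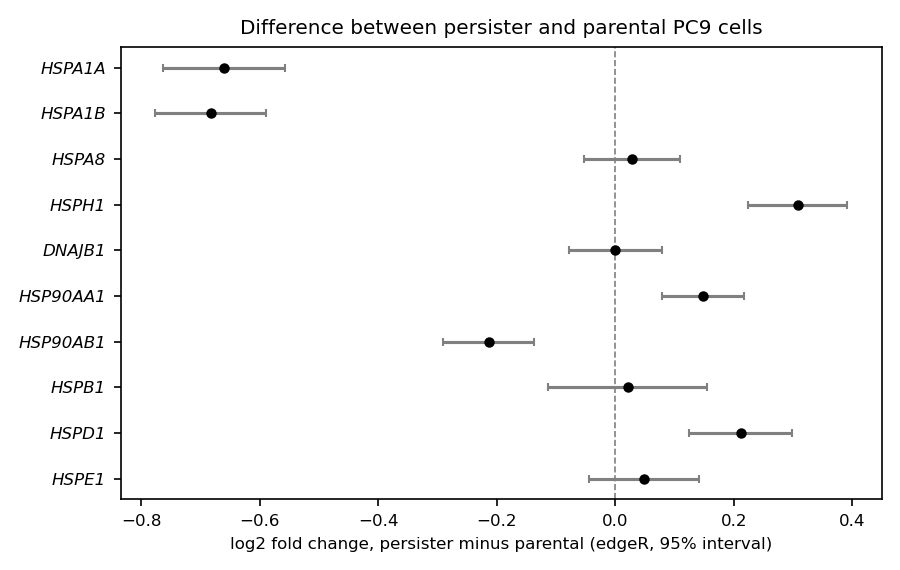
Log2 fold change of each of the 10 genes, persister minus parental, with the 95% interval from edgeR's quasi-likelihood fit. HSPA1A and HSPA1B lie at -0.66 and -0.68, HSPH1 lies at 0.31, and the intervals of HSPA8, DNAJB1, HSPB1 and HSPE1 include 0.

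HSPB1 encodes HSP27, a small heat shock protein that holds unfolded proteins without using ATP. HSPB1 (ENSG00000106211, chromosome 7, 76302673 to 76304295) had 249, 279 and 242 CPM in parental and 241, 271 and 270.1 CPM in persister libraries. The ranges overlap, and the 95% interval of the log2 fold change, -0.11 to 0.16, was the widest of the 10 (adjusted p = 0.774 in edgeR).

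HSPD1 and HSPE1 encode the barrel and the lid of the mitochondrial chaperonin, and the genes lie head to head on chromosome 2. HSPD1 (ENSG00000144381, 197486584 to 197516737) had 790.2, 721 and 742 CPM in parental and 875, 873 and 861 CPM in persister libraries, without overlap. It rose by a log2 fold change of 0.21 (SE 0.0391, adjusted p = 0.000620 in edgeR). HSPE1 (ENSG00000115541, 197500140 to 197503449) had 133, 129 and 138 CPM in parental and 132, 140.2 and 142 CPM in persister libraries. Its ranges overlap, and the log2 fold change was 0.048 with a 95% interval of -0.044 to 0.14 (adjusted p = 0.326 in edgeR). The count of HSPD1 was 5.92, 5.58 and 5.37 times that of HSPE1 in parental and 6.62, 6.23 and 6.07 times in persister libraries, without overlap (two-sided exact permutation p = 0.1, the smallest possible). These ratios are not per length, and the main transcripts of HSPD1 and HSPE1 are 2245 and 557 bases long. Of the 31-base words of their main transcripts 50.9% and 55.0% occur in other genes, most often in HSPD1P1 and HSPE1-MOB4, so part of their reads could have been assigned elsewhere. HSPE1-MOB4 itself had 0 to 150 counts per library, against 3862 to 4845 for HSPE1. For the main transcripts of HSPA8, HSP90AB1 and HSP90AA1 the shares of 31-base words found in other genes are 45.0%, 42.0% and 39.5%. The levels and shares given above for these genes carry the same uncertainty.

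**Figure D4:**
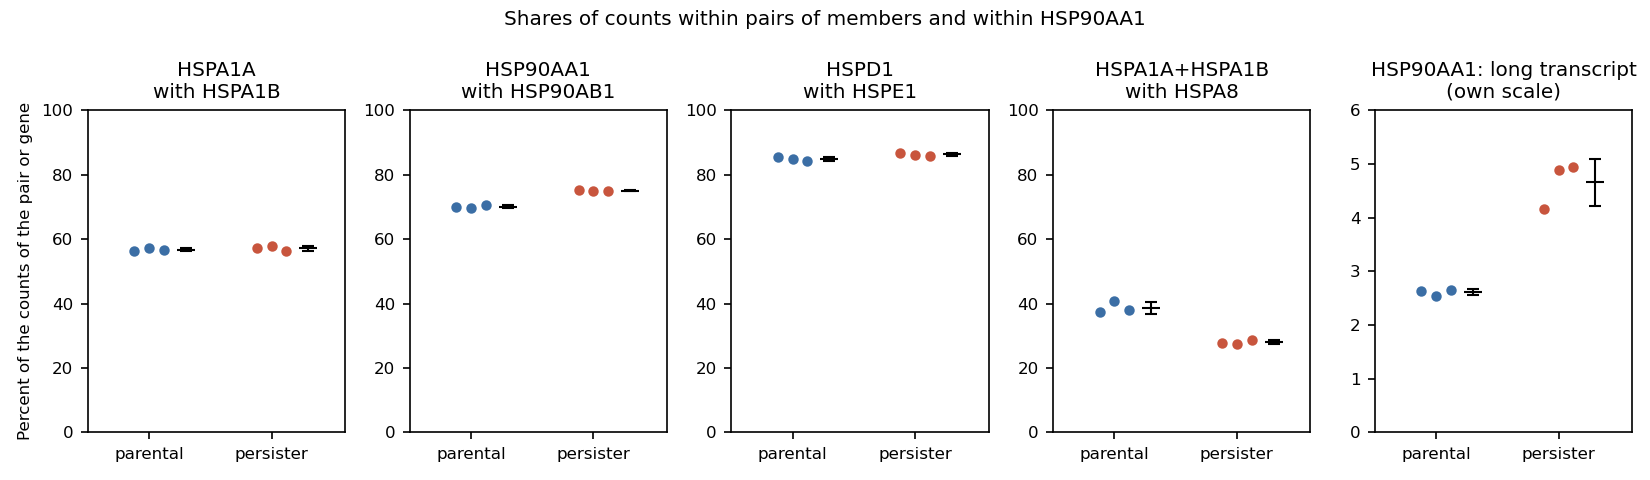
Share of counts in each library, in percent, for 4 pairs of members and, on its own scale, for the long HSP90AA1 transcript within its gene, with the mean and SD of 3 libraries. The HSPA1A share is about level, the HSP90AA1 share moves from 70.1% to 75.1%, and the share of the inducible HSP70 pair moves from 38.6% to 28.0%.

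Levels can be compared between genes only per length, here as TMM-scaled transcript CPM per kilobase summed over the transcripts of a gene. HSP90AA1 was first in parental cells with 1361 ± 22.4 CPM per kilobase (SD, n = 3), HSPA8 next with 883 ± 24.4 and HSP90AB1 after it with 732 ± 15.1. HSPD1 (397 ± 34.7) and HSPB1 (333 ± 26.3) came next. By this sum HSPD1 was above HSPB1 in every parental library, with 367.9 CPM per kilobase at its lowest against 362.8 at the highest of HSPB1. The HSPD1 sum includes a transcript of only 648 bases, annotated as a retained intron, at 61.4, 37.0 and 44.3 CPM in parental libraries. Whether the order holds without it was not tested. HSPA1A followed with 288 ± 18.4, HSPE1 with 244 ± 8.06 and HSPA1B with 209.8 ± 10.1, where HSPA1A and HSPA1B use gene CPM over the length of their longest transcript. DNAJB1 (108 ± 1.23) and HSPH1 (41.7 ± 1.15) were lowest. In persister cells the order differed at 1 place, with HSPE1 at 247 ± 9.67 above HSPA1A at 183 ± 4.80 CPM per kilobase. With the longest transcript of each gene as the length, the places of HSPD1, HSPB1, HSPE1 and HSPA1A changed in both conditions and that of HSPA1B in parental cells, and the first 3 and the last 2 places did not.

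At the level of transcripts, 7.80% of all 54499 tested passed the limit. Of the transcripts that held at least 10% of their gene's counts, the main ones of HSP90AB1 (ENST00000371646.10, log2 fold change -0.24, adjusted p = 0.00317 in edgeR) and HSPD1 (ENST00000388968.8, 0.20, adjusted p = 0.00528 in edgeR) passed, and leaving out 1 library ended both calls in most cases. The main HSP90AA1 transcript (ENST00000216281.12) did not pass, at 0.091 (adjusted p = 0.0403 in edgeR). The edgeR transcript test missed most changes simulated at the spread of these transcripts, so missing the limit does not show that a transcript was unchanged.

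A long HSP90AA1 transcript, ENST00000334701.11, which begins at the upstream start, was chosen for the text after its values were seen. It had 117, 109.5 and 117 CPM in parental and 199, 236 and 234 CPM in persister libraries, without overlap. It rose by a log2 fold change of 0.96 (SE 0.0761, adjusted p = 0.000814 in edgeR), and its share of the gene's transcript counts went from 2.64%, 2.54% and 2.64% to 4.15%, 4.88% and 4.95% (two-sided exact permutation p = 0.1, the smallest possible). In a test of transcript usage HSP90AA1 was the 1 member past the limit of 8 tested (adjusted p = 8.30e-08 in edgeR), against 1.93% of 10545 genes. Most calls of that usage test were false in counts simulated at the spread of these transcripts. Few transcripts were changed in that simulation, so it does not judge this single call, and the usage p-value is not relied on here. The shares and the transcript's own test carry the description, and that own test missed the limit with a replicate block (adjusted p = 0.0150 in edgeR). HSPH1 also had a minor transcript past the limit, ENST00000320027.9, at 6.06 ± 0.908 against 12.1 ± 1.31 CPM (SD, n = 3, adjusted p = 0.00880 in edgeR), a call that ended with any library left out and was likewise chosen after its values were seen.

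The wider chaperone network was described with 11 lists of related genes. Of 124 tested genes on them that are not among the 10, 48 were higher, 22 lower and 54 not past the limit, with a median log2 fold change of 0.084. Over all genes tested 28.7% were higher and 28.1% lower, with a median of -0.0061, and the counts of each list are to be read against these shares. Of 11 HSP70 and HSP110 relatives 7 rose and 1 fell, against 28.7% and 28.1% of all genes tested. The mitochondrial HSP70 HSPA9 rose by a log2 fold change of 0.68 (adjusted p = 2.35e-08 in edgeR) and the endoplasmic reticulum HSP70 HSPA5 by 0.53 (adjusted p = 1.52e-07 in edgeR). HSPA1L, next to HSPA1A and HSPA1B on chromosome 6 and at 4.42 CPM or less, fell by 0.78 (adjusted p = 0.000333 in edgeR). It was not tested with gene counts summed from transcripts, and whether reads of HSPA1A and HSPA1B were assigned to it was not tested.

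Of 34 further J-domain proteins 16 rose and 3 fell, against 28.7% and 28.1% of all genes tested. DNAJB2 rose by a log2 fold change of 1.02 and DNAJC10, a reductase of the endoplasmic reticulum, by 0.95. DNAJA2 fell by 0.37, DNAJC18 by 0.58 and DNAJC17 by 0.70. Of 11 nucleotide exchange factors 4 rose, HSPA4L (0.93) and BAG1 (0.60) among them, and BAG3 fell by 0.38. Of 21 HSP90 co-chaperones 6 rose and 4 fell, against the same shares, and FKBP5 rose by 0.94 while PIH1D1 fell by 0.54. Without parental replicate 3 or without persister replicate 3 the number of co-chaperones that fell was 2.

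Among small heat shock proteins 3 of 8 were tested. CRYAB, alpha B-crystallin, had 0.320, 0.441 and 0.475 CPM in parental and 4.45, 4.80 and 4.39 CPM in persister libraries, a log2 fold change of 3.45 (SE 0.175, adjusted p = 2.91e-08 in edgeR). HSPB8 rose by 1.57, and HSPB6, at 1.86 CPM or less, fell by 0.78 in a call that was lost with DESeq2 (adjusted p = 0.0308) and with any of 4 libraries left out.

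Of 16 mitochondrial chaperones and proteases 10 rose and 3 fell, with a median log2 fold change of 0.27, where 28.7% of all genes tested rose and 28.1% fell. Of 11 endoplasmic reticulum chaperones 6 rose and 0 fell. The cytosolic CCT chaperonin split, with 3 of its 8 subunits higher and 2 lower, and 2 of 6 prefoldin subunits fell, PFDN5 by 0.57 and PFDN4 by 0.66. The call of the CCT subunit CCT6A (0.12, adjusted p = 0.00591 in edgeR) was lost in 7 of 14 alternatives, with adjusted p up to 0.0782. Some genes stand on more than 1 list.

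The heat shock factors and their partners gave 0 rises and 3 falls among 6 tested, against 28.7% and 28.1% of all genes. Without parental replicate 2 there was 1 rise. HSF2 fell by 0.39, HSF4 by 0.83 and HSBP1L1 by 0.50 on the log2 scale. HSF1 itself had 117, 142 and 127 CPM in parental and 141, 145 and 147 CPM in persister libraries, and its log2 fold change of 0.17 did not pass (adjusted p = 0.0309 in edgeR). Of 21 other heat shock response genes 7 rose and 4 fell, against the same shares, with SERPINH1 at 0.46 and IER5 at -0.66.

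**Figure D5:**
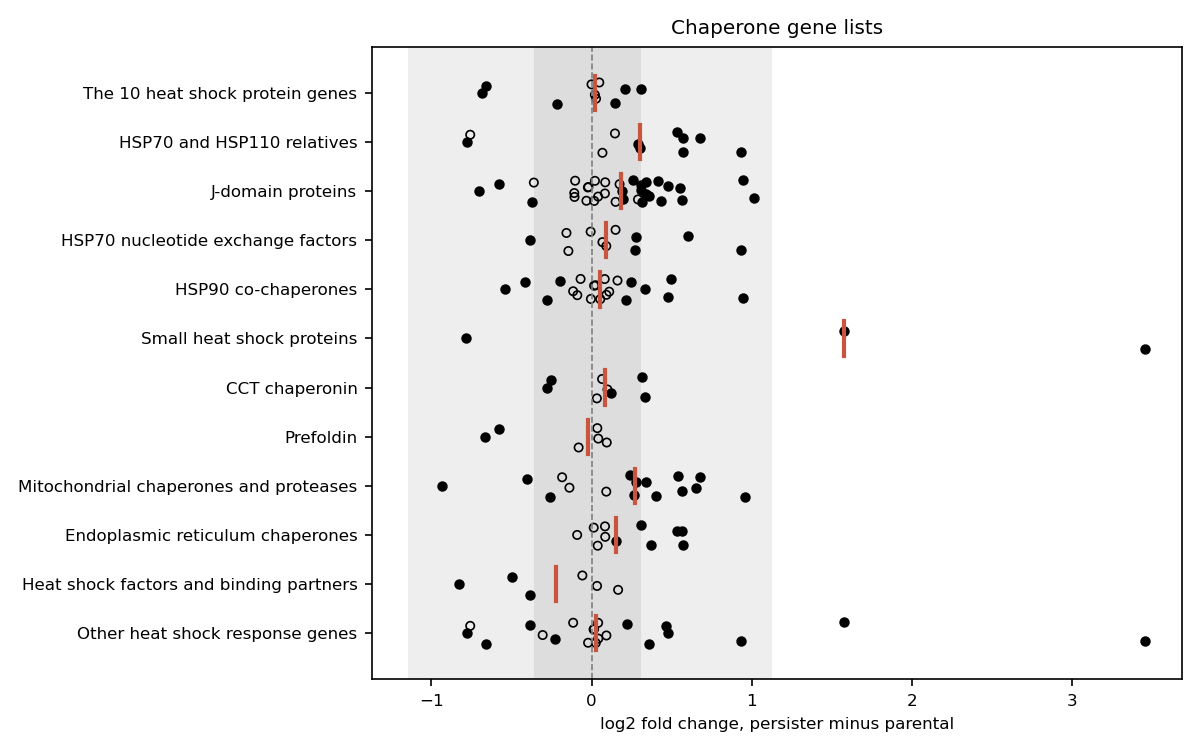
Log2 fold change of the 10 genes and of the genes of 11 chaperone lists, persister minus parental, with filled points past the limit of 0.01, open points not past it and a red bar at each list's median. The grey bands hold the middle 50% and the middle 90% of all genes tested, and CRYAB lies at 3.45 outside both.

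The genes whose pattern over the 6 libraries was most like that of HSPH1 were RAD23B, CDKN3 and CREM (Pearson r of log2 CPM 1.00, 1.00 and 0.999), and those most like HSPA1B were CIB1, RNASET2 and PARP16 (0.999 each). The 6 points are shared by all genes and fall into 2 conditions, and 2133 and 2302 of 12274 genes had r above 0.95 with HSPH1 and HSPA1B.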

How the data were processed

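Poly-A RNA of 3 parental and 3 persister libraries was sequenced, and groups were taken from the sample labels. The authors pseudoaligned reads with kallisto 0.46.1 to Ensembl transcripts of GRCh38 and deposited the estimated counts unnormalized and rounded, in a gene table and a transcript table. No test here includes the uncertainty of dividing reads between similar transcripts, and the second laboratory's libraries were not analysed here.

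CPM are TMM-scaled counts per library size, except those of the cell type markers, which were not scaled by TMM. Tests were run with edgeR 4.0.16 under R 4.3.3 (filterByExpr, TMM, glmQLFit and glmQLFTest without a block). The standard error is the size of the log2 fold change over the square root of F. Usage was tested with diffSpliceDGE. Alternatives used DESeq2 1.42.0 and limma 3.58.1 (voom), other normalizations, no filter, transcript sums, a replicate block and each library left out. Coordinates are from GENCODE 44 on the same assembly as the authors' older annotation, and 167067 of 188753 transcripts matched, with 95.8% of the counts.

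The gene test recovered most changed genes in simulated data with few false calls. Few genes were changed there, each by more than any member, whereas 56.8% of all genes tested passed in these data. Recovery was not given for changes of the size seen in the members. The simulation therefore does not show that a member missing the limit was unchanged. At the dispersions estimated for the transcripts, the edgeR and voom transcript tests made few false calls and missed most changes. At these dispersions most calls of DESeq2 on transcripts and of the edgeR usage test were false at both fold sizes tried. Few transcripts were changed in these simulations, and the share of false calls depends on that number. The same code performed well at a low fixed dispersion, which these transcripts do not have.

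The genes and lists were chosen with earlier results of these data known. Selected were all members, up to 3 genes of each list with the smallest p in each direction, and transcripts with at least 10% of their gene's counts. The 3 genes most correlated with the largest rise and fall were selected too. Not every selected list gene is printed, and other exceptions are stated. Depth, 29476725 to 34893782 counts, leaves the spread between libraries as the limit. Figures were drawn with matplotlib 3.10.9.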

Additional observations from a re-analysis of the deposited data

How the results depend on the processing

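Of 138 alternative values of the 10 genes, 122 kept their direction and side of the limit, 3 lost a call, those of HSP90AA1, and 13 changed sign, none of them of a called gene. With upper-quartile factors DNAJB1, HSPA8 and HSPB1 turned to -0.043, -0.015 and -0.022 on the log2 scale. With library size only DNAJB1, HSPA8, HSPB1 and HSPE1 turned to -0.054, -0.025, -0.033 and -0.0051. The median log2 fold change of all genes tested moved too, from -0.0061 to -0.049 with upper-quartile factors and -0.059 with library size only. DNAJB1 was -0.00299 with gene counts summed from transcripts, -0.023 without parental replicate 1 and -0.0084 without persister replicate 3. HSPB1 was -0.021 without parental replicate 3, -0.0064 without persister replicate 2 and -0.00649 without persister replicate 3. Among leading transcripts, DNAJB1 ENST00000254322.3 turned to -0.041 and HSPA8 ENST00000534624.6 to 0.0026 without parental replicate 1, HSPB1 ENST00000248553.7 to -0.011 and -0.00198 without parental and persister replicate 3, and HSPH1 ENST00000630972.2 to -0.0533 and -0.16 without parental replicate 2 and persister replicate 1. With a library left out, the highest values of these were 0.017 for DNAJB1, 0.084 for HSPB1, 0.049 for the DNAJB1, 0.094 for the HSPB1 and 0.21 for the HSPH1 transcript. A further limit of a log2 fold change above 1 left 0 members higher, 0 lower, 3 list genes higher and 0 lower. Summed transcripts left 1 member lower, since HSPA1A and HSPA1B could not be tested there. Leading transcripts past the limit numbered 1 without a filter and 0 to 2 with a library left out, against 2. Members with changed usage numbered 1 to 2 with a library left out, DNAJB1 being the second without persister replicate 2. The cause was not tested.

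Deviations of same-numbered libraries from their condition's mean correlated at 0.124, 0.0236 and 0.0215, and those of differently numbered libraries at -0.117 to 0.0971. With 3 libraries per condition these values cannot decide whether same-numbered libraries were handled together. With the replicate block, 8671 genes passed against 8307, 3 members were higher and 3 lower, leading transcripts past the limit numbered 0, and the long HSP90AA1 transcript had 0.96 with an adjusted p of 0.0150 in edgeR, no longer past the limit of 0.01, and the heat shock factor list had 1 rise. Of 573 alternative values of the other selected chaperone genes 14 lost a call and 0 changed sign. Leaving out each library was applied to the shares within pairs of members after seeing the data, and the difference in percentage points, persister minus parental, stayed between 4.80 and 5.27 for HSP90AA1, between -11.3 and -9.64 for the inducible HSP70 pair, between 1.12 and 1.74 for HSPD1 and between 0.0557 and 0.741 for HSPA1A.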
